A study of Mus musculus with 10 samples.

Results

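The steroid receptor genes and their near relatives were followed across every array of the series. The members are Esr1 and Esr2, the genes of the estrogen receptors alpha and beta, Pgr (progesterone receptor), Nr3c1 (glucocorticoid receptor), Nr3c2 (mineralocorticoid receptor), and Esrra, Esrrb and Esrrg, the genes of the estrogen-related receptors alpha, beta and gamma. All probe sets whose annotation names a member were taken, whatever their values. A probe set is a group of short probes on the array that read the same transcript, and a gene can have several. The choice gave 22 probe sets for 8 genes, among 45037 probe sets without controls and 18193 genes with a symbol of their own.

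The series used 10 Affymetrix arrays with total RNA of mouse embryonic fibroblasts, cells grown out of embryos and kept here in DMEM with 10% serum. Of these, 6 arrays came from a conditional Dicer knockout line (CDKO), Dicer being the enzyme that releases microRNAs from their precursors. This line was untreated or exposed for 4 days to 4-hydroxytamoxifen (OHT) at 1 µM or 5 µM. The other 4 arrays came from cells whose titles say wild type (WT), given 5 µM OHT or untreated, and each of the 5 groups had 2 arrays. The sample description calls all 10 samples conditional knockout, and the titles were followed. The labels name no Cre recombinase, no transgene, no allele of Dicer, no strain and no age, and do not say whether a line was a clone, whether embryos were pooled, or whether replicate arrays stem from separate cultures. The p values may therefore measure technical spread only.

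Steroid receptors are transcription factors that bind a hormone inside the cell, let go of chaperones of the HSP90 family, and then act on DNA together with coactivators or corepressors. OHT is a ligand of both estrogen receptors and also binds the estrogen-related receptors beta and gamma, which have no known natural hormone. Since OHT binds the hormone-binding part of the estrogen receptor, fusions of a recombinase with that part are widely used to switch on gene deletion in cultured cells.

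On mouse assembly GRCm38.p6, by the RefSeq gene table, Esr1 lies at chr10:4611989-5005633, Esr2 at chr12:76120419-76177259, Pgr at chr9:8898900-8968611 and Nr3c2 at chr8:76898083-77245012. Esrra lies at chr19:6910977-6922048, Esrrb at chr12:86361117-86521628 and Esrrg at chr1:187608510-188214885. The exons that the probes match were not worked out here. In the names of the probe sets, the mark _s_ stands for probes that can match transcripts of other genes.

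The promoters of 2 members are shown because these members are read well above background and behave differently: Esr1, which parted the 2 lines, and Esrra, which passed no test. Each is the 250 bases before an annotated start site, from RefSeq on GRCm38.p6, on the strand of the gene, 5′ to 3′, with CG dinucleotides in capitals. Esr1 has 2 such windows far apart, the first at chr10:4611739-4611988 and the second at chr10:4709908-4710157, both on the plus strand. Esrra has its window at chr19:6921809-6922058 on the minus strand.
Esr1, first start: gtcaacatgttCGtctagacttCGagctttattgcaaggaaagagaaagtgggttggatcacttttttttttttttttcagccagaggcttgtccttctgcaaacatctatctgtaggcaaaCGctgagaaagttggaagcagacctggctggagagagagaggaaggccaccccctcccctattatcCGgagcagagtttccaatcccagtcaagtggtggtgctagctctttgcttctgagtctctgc
Esr1, second start: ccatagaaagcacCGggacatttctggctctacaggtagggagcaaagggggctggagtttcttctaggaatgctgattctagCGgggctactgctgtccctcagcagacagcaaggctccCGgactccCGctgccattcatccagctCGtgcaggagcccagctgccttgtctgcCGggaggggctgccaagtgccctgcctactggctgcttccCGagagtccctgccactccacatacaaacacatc
Esrra: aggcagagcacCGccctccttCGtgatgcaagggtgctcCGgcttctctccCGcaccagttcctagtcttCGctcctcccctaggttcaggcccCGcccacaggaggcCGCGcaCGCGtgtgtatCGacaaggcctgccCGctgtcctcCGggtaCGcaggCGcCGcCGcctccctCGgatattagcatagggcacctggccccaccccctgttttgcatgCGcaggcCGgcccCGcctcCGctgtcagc
The first Esr1 window held 47.6% G or C and 4 CG dinucleotides, the second 59.6% and 7, and that of Esrra 68.4% and 22. Over all 32851 windows of the table the medians were 52.4% and 6.

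Motifs were searched in 12 windows of 7 of the member genes, on both strands, from 250 bases before to 50 after the start. No window of Nr3c1 was among them, so the counts do not cover that gene. None of the 12 held the estrogen response element (GGTCA, any 3 bases, TGACC), which stood in 0.07% of all windows, or the glucocorticoid response element (GNACA, any 3 bases, TGTNC), which stood in 0.475%. None held AAGGTCA, the element of the estrogen-related receptors (4.72% of all windows), or the shorter AGGTCA inside it (16.3%). The GC box GGGCGG stood in 5 of the 12 and in 35.7% of all windows, and in the Esrra window it began 240 and 157 bases before the start. TATAAA stood in 2 of the 12 and in 13.6% of all windows. A match or its absence describes these letters in these windows and nothing else.

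All values are log2 signals as the authors deposited them, and differences are on the same log2 scale. A value of 4 was taken as the limit of background, since most probe sets stay under it: between 41.8% and 43.2% of the probe sets reached 4 in an array. Of the 22 receptor probe sets 7 had a group mean of at least 4 and were tested, namely 1 of Esr1, 4 of Nr3c1 and 2 of Esrra. The other 15 lay below, among them every probe set of Esr2, Pgr, Nr3c2, Esrrb and Esrrg.

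**Figure D1:**
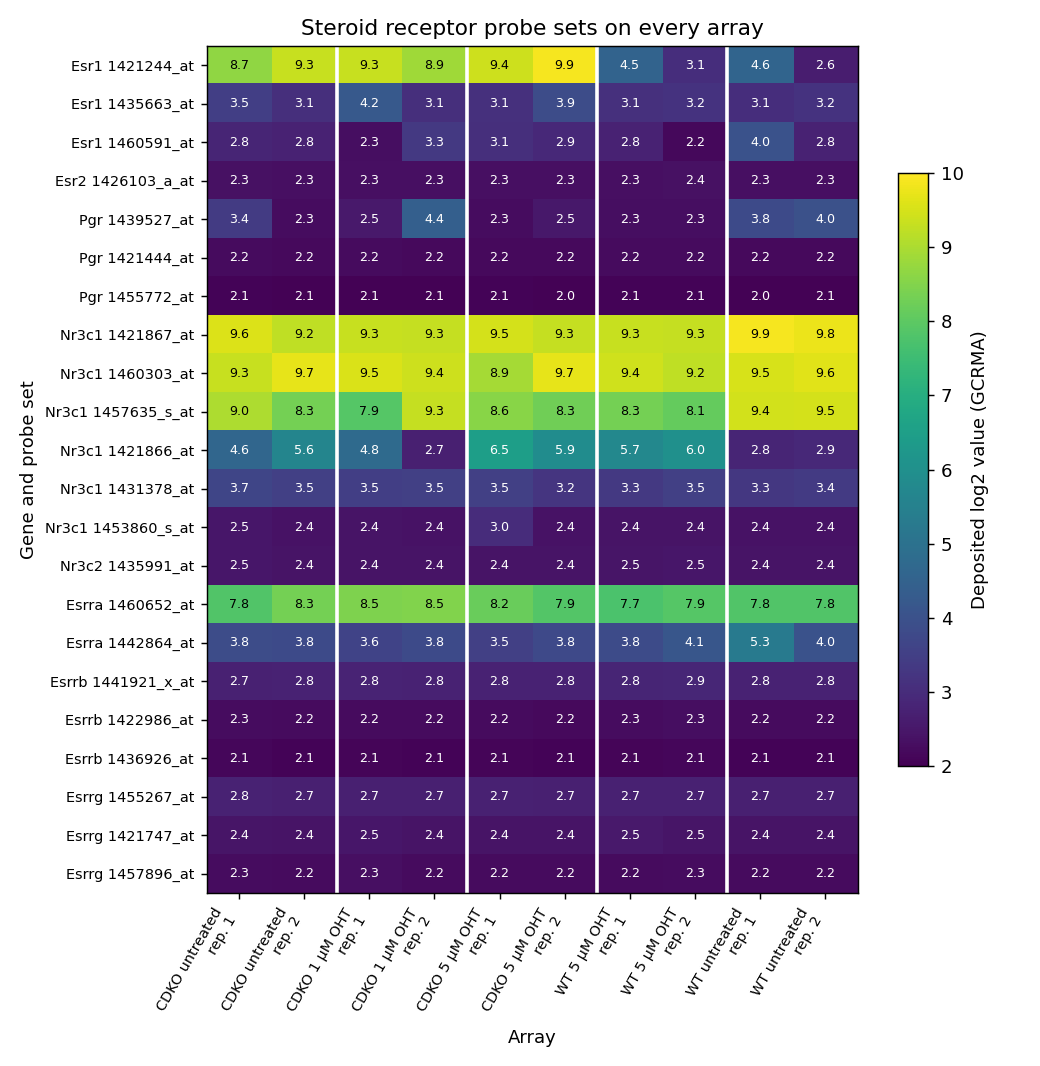
Log2 value of each of the 22 receptor probe sets (down the page) on each of the 10 arrays (across), with white lines between the 5 groups. Esr1 1421244_at is above 8 in the 6 CDKO arrays and below 5 in the 4 WT arrays, while the probe sets of Esr2, Nr3c2, Esrrb and Esrrg stay below 3 everywhere.

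The arrays differed in ways that the labels do not record. The 18S ribosomal RNA control was raised in 3 arrays, CDKO 1 µM replicate 2 (10.2) and both untreated WT arrays (11.6 and 11.2), against 5.21 to 8.44 in the other 7. In the same 3 arrays the Gapdh control read higher at its 3′ than at its 5′ end, by 1.58, 0.89 and 0.67, against -0.31 to 0.07 elsewhere. The hybridisation spike-in controls fell into 2 classes, the lower holding both CDKO 1 µM arrays and replicate 2 of untreated and of 5 µM CDKO cells, the higher holding the other 6 arrays. The median SD between replicates was 0.31, 0.34 and 0.29 in CDKO cells at 0, 1 and 5 µM, 0.07 in treated WT and 0.10 in untreated WT cells (log2, n = 2 each). Dicer1, the targeted gene, read 6.33 and 5.93 in untreated CDKO cells, 6.10 and 6.55 at 1 µM and 5.90 and 5.49 at 5 µM on probe set 1460571_at, against 5.90 and 5.94 in treated and 7.31 and 7.16 in untreated WT cells. On 1427941_at Dicer1 read 7.09 and 5.99 in untreated CDKO cells, 5.40 and 8.30 at 1 µM and 5.83 and 5.78 at 5 µM, against 7.64 and 7.19 in treated and 8.97 and 9.10 in untreated WT cells. Whether either lies in the deleted part is not given, so they check no label. Of 11 fibroblast markers, 10 or 11 were at 4 or above in every array, but their summed log2 level was 118.4 in CDKO 5 µM replicate 1, against 129.6 to 136.3 in the other 9 arrays.

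Esr1, through which estrogens and OHT act on gene expression, gave a signal that was high in CDKO cells on 1 probe set and near background on its other 2. On 1421244_at, Esr1 read 8.66 and 9.34 in untreated CDKO cells, 9.34 and 8.85 in CDKO cells at 1 µM and 9.40 and 9.90 at 5 µM. In WT cells it read 4.54 and 3.05 at 5 µM and 4.57 and 2.63 untreated. All 6 CDKO arrays lay above all 4 WT arrays, with 4.08 between the lowest CDKO and the highest WT value, and the widest SD within a group was 1.37. The share of all probe sets that part the lines without overlap is not given here. The replicates of WT cells lay 1.49 apart at 5 µM and 1.94 untreated, where the median SD over all tested probe sets was 0.07 and 0.10, with replicate 1 above 4 and replicate 2 below it in both.

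The difference between the lines passed the test with and without drug. At 5 µM, Esr1 on 1421244_at averaged 9.65 ± 0.36 in CDKO cells and 3.80 ± 1.05 in WT cells (SD, n = 2 each), a difference of 5.85 ± 0.71 (SE; limma, adjusted p = 0.0124). Untreated, it averaged 9.0 ± 0.48 in CDKO cells and 3.60 ± 1.37 in WT cells, a difference of 5.39 ± 0.71 (limma, adjusted p = 0.00767). Both WT means lay below 4, so these are distances from background and not ratios of transcript amounts. In bulk RNA, fewer cells that express a gene and less RNA per cell cannot be told apart. The adjusted p at 5 µM was between 0.05 and 0.108 when any 1 of the 4 arrays compared was left out, and 0.0805 with those arrays alone.

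**Figure D2:**
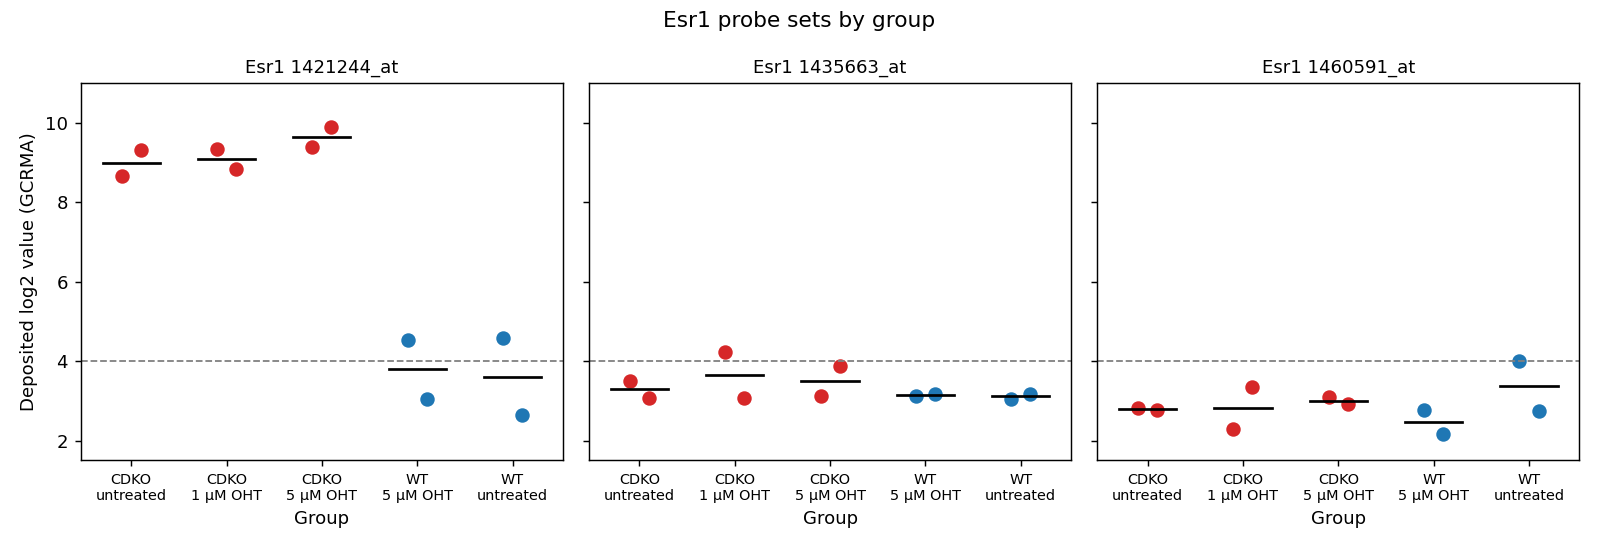
Log2 value of the 3 Esr1 probe sets in the 5 groups, 1 point per array, red for CDKO and blue for WT, with a bar at each group mean and a dashed line at 4. On 1421244_at the CDKO points run from 8.66 to 9.90 and the WT points from 2.63 to 4.57, while on the other 2 probe sets the lines overlap between 2.17 and 4.23.

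OHT did not move Esr1 past the test in either line. On 1421244_at the change in CDKO cells at 5 µM against untreated was 0.65 ± 0.71, with a 95% interval from -1.0 to 2.30 (limma, adjusted p = 0.921). At 1 µM against untreated it was 0.10 ± 0.71, with an interval from -1.55 to 1.75. The 5 µM and 1 µM groups differed by 0.55 ± 0.71, with an interval from -1.10 to 2.20. In WT cells the change at 5 µM was 0.19 ± 0.71, with an interval from -1.46 to 1.85. The responses of the lines differed by 0.46 ± 1.00, with an interval from -1.88 to 2.79. Each of these intervals holds 0 and also holds differences above 1.

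Treated CDKO cells against all controls is the comparison that the design text of the series names, with 4 arrays against 6. Esr1 on 1421244_at was higher by 3.91 ± 0.46 there (limma, adjusted p = 0.00797), at 9.37 in the treated CDKO groups and 5.47 over the control groups. The controls hold both untreated CDKO arrays, which read as high as the treated ones, and 4 WT arrays, which read low. With the line as a term the difference was 0.38 ± 0.58 (adjusted p = 1). It was 2.98 ± 0.38 without the untreated WT group (adjusted p = 0.0958), 3.56 ± 0.63 with a block for spike-in class (adjusted p = 0.064), and 3.91 with array weights (adjusted p = 0.208) or as 2 groups of 4 and 6 arrays (adjusted p = 0.512).

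No WT array was in the lower spike-in class. Within the higher class, which held 2 CDKO and 4 WT arrays, the means of Esr1 on 1421244_at were 5.33 apart; the order of the lines there was fixed, since they do not overlap over all arrays. For the drug in CDKO cells, the difference at 5 µM was 0.74 within the higher class and 0.57 within the lower (1 array against 1 each).

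Summed levels of markers of other cells also differed between the lines. The summed log2 level of 5 adipocyte markers was 27.3 to 31.7 in untreated CDKO cells, 27.7 to 32.9 at 1 µM and 29.4 to 30.5 at 5 µM, against 36.0 to 36.6 in treated and 41.6 to 41.7 in untreated WT cells. At least 4 of these 5 markers were at 4 or above in every array. Of the 5, 3 were lower in CDKO than in WT cells untreated and 0 at 5 µM (limma). Over all 10623 tested genes 4.54% passed between the lines untreated and 1.45% at 5 µM. The sum of 13 macrophage and leukocyte markers was 85.7 to 99.1, 78.9 to 81.9 and 84.5 to 106.9 in the CDKO groups at 0, 1 and 5 µM, against 111.2 to 111.8 in treated and 110.5 to 110.9 in untreated WT cells. Of those markers 11 or 12 were at 4 or above in every array, with Itgam below 4 throughout, and 0 of 12 tested passed between the lines untreated or at 5 µM. Within CDKO the macrophage sum also went with the spike-in class, at 99.1 and 106.9 in the 2 arrays of the higher class and 78.9 to 85.7 in the 4 of the lower. Of 6 endothelial markers Emcn alone reached 4. Of 10 markers of pluripotent and trophoblast cells 8 stayed below 4 throughout, among them Pou5f1 and Nanog. Between the untreated lines Emcn was higher in CDKO cells, by 1.86 ± 0.26 (limma, adjusted p = 0.0094). Sox2, of the pluripotent list, differed by -1.28 ± 0.28 (adjusted p = 0.041), which passed in 10 of 19 alternatives. Sox2 lay below 4 in untreated CDKO cells and was tested through the untreated WT group, so its difference is a distance from background. Between the untreated lines 2 of 4 tested epithelial and 6 of 8 skeletal muscle markers were also lower in CDKO cells. Markers that reach 4 only in untreated WT cells were tested through that group, which favours a lower value in CDKO cells. None of the markers of other cells passed between the lines at 5 µM. The part of these differences in the Esr1 signal was not tested.

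The other 2 Esr1 probe sets did not follow the first. On 1435663_at, Esr1 read 3.5 and 3.08 in untreated CDKO cells, 4.23 and 3.07 at 1 µM and 3.11 and 3.87 at 5 µM, against 3.12 and 3.16 in treated and 3.05 and 3.18 in untreated WT cells. On 1460591_at it read 2.82 and 2.76 in untreated CDKO cells, 2.30 and 3.34 at 1 µM and 3.09 and 2.92 at 5 µM, against 2.77 and 2.17 in treated and 4.01 and 2.75 in untreated WT cells. The lines overlapped on both, each passed 4 in 1 array only, and no group mean reached 4, so neither was tested. Across the 10 arrays, 1421244_at had a Pearson r of 0.454 with 1435663_at and 0.045 with 1460591_at, and these last 2 had r = -0.425 with each other, as descriptions of arrays that share 2 lines. The annotation ties 1421244_at to the RefSeq transcript of Esr1 and the other 2 to the same expressed sequence tag, a partial read of a cDNA. The labels do not say whether the CDKO cells carry a fusion that holds part of an estrogen receptor.

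The genes most like Esr1 1421244_at were Gsn (gelsolin, an actin-severing protein; r = 0.971), Prdx2 (peroxiredoxin 2, which removes peroxides; r = 0.968) and Cdc14b (a phosphatase; r = 0.967), by Pearson r over the 10 arrays among tested probe sets. Each of them was higher in every CDKO array than in every WT array. Their choice by likeness to a probe set that parts the lines favours this, so it is no separate result. The lowest CDKO and highest WT values were 14.8 and 13.1 for Gsn, 9.61 and 6.59 for Prdx2, and 8.85 and 8.45 for Cdc14b. The genes nearest to 1435663_at were Kcmf1 (0.878), Smim10l2a (0.849) and Wee1 (0.832), and those nearest to 1460591_at were Bcor (0.937), Mlxip (0.882) and Cerk (0.876), so the 3 Esr1 probe sets shared none of these neighbours.

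Counts over all features set these calls in scale. Of 56 tests, 7 probe sets in 8 comparisons, 4 passed, 3 of them of Esr1 1421244_at and 1 of Nr3c1. In treated CDKO cells against the control groups 1 of 7 receptor probe sets passed, where 4.08% of all 20681 tested probe sets did. For CDKO against WT it was 1 of 7 untreated, where 6.58% of all passed, and 1 of 7 at 5 µM, where 1.8% did. In WT cells at 5 µM against untreated it was 1 of 7, where 9.23% of all passed. All 4 calls were positive differences. None of the 7 passed within the CDKO line or in the difference between the responses, where the background was 0.145% at 5 µM and 0% at 1 µM against untreated, 0.169% for 5 µM against 1 µM and 0.348% for the difference between lines. By limma at an unadjusted p under 0.05, 0 of 7 receptor probe sets and 1839 of all passed at 5 µM against untreated CDKO cells, 0 and 710 at 1 µM, 1 and 2677 for 5 µM against 1 µM, and 0 and 2586 for the difference between lines.

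**Figure D3:**
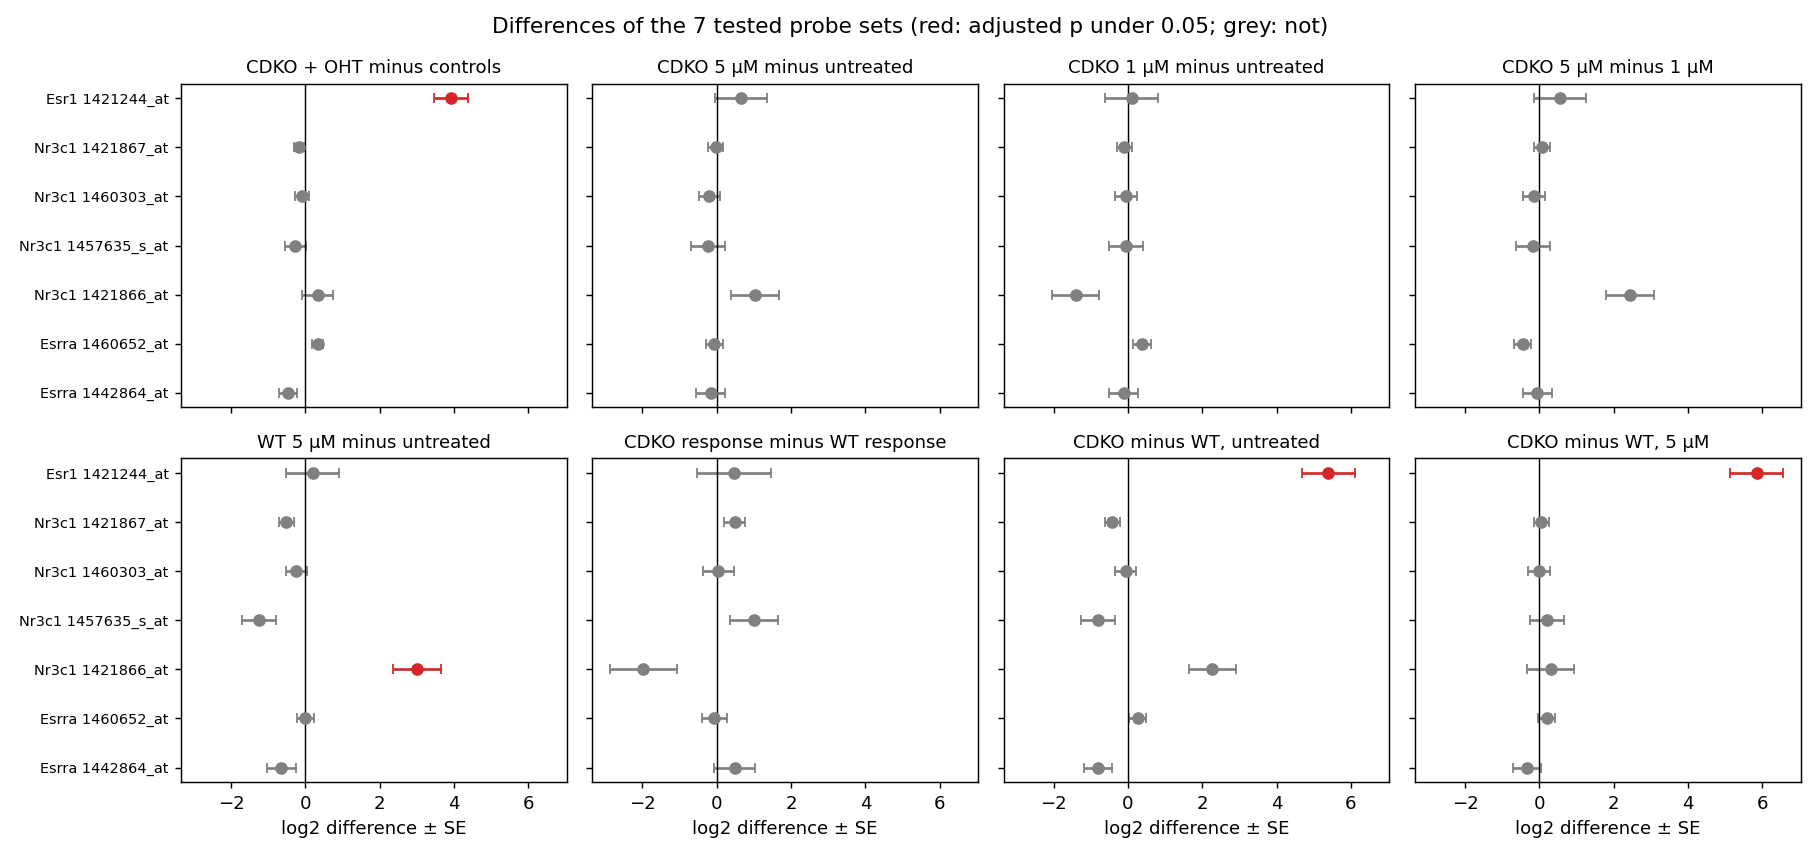
Log2 difference of the 7 tested receptor probe sets in the 8 comparisons, with bars of 1 SE, red where the adjusted p is under 0.05 and grey elsewhere. The red points are Esr1 1421244_at at 3.91, 5.39 and 5.85 and Nr3c1 1421866_at at 3.0.

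Nr3c1 (chr18:39410545-39519421), whose receptor binds glucocorticoids and is found in most cell types, was read high by 3 of its 6 probe sets. On 1421867_at, Nr3c1 read 9.59 and 9.22 in untreated CDKO cells, 9.31 and 9.30 at 1 µM and 9.48 and 9.28 at 5 µM, against 9.34 and 9.31 in treated and 9.89 and 9.78 in untreated WT cells. On 1460303_at it read 9.33 and 9.70 in untreated CDKO cells, 9.54 and 9.39 at 1 µM and 8.93 and 9.71 at 5 µM, against 9.42 and 9.25 in treated and 9.51 and 9.64 in untreated WT cells. The lines overlapped on both, and neither passed the test in any comparison. The difference in WT cells at 5 µM was -0.51 ± 0.20 on 1421867_at (limma, adjusted p = 0.142) and -0.24 ± 0.29 on 1460303_at (adjusted p = 0.617). In CDKO cells at 5 µM it was -0.02 ± 0.20 and -0.20 ± 0.29, with 95% intervals from -0.50 to 0.45 and from -0.88 to 0.48.

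Another pair of Nr3c1 probe sets stood opposite each other across the arrays (Pearson r = -0.821, n = 10). On 1421866_at, Nr3c1 read 4.65 and 5.65 in untreated CDKO cells, 4.76 and 2.72 at 1 µM and 6.47 and 5.89 at 5 µM, against 5.75 and 6.01 in treated and 2.82 and 2.92 in untreated WT cells. On 1457635_s_at it read 9.01 and 8.32 in untreated CDKO cells, 7.90 and 9.30 at 1 µM and 8.59 and 8.26 at 5 µM, against 8.33 and 8.11 in treated and 9.45 and 9.48 in untreated WT cells. In WT cells both treated arrays lay above both untreated arrays on the first and below them on the second. On 1421866_at the WT groups averaged 5.88 ± 0.18 at 5 µM and 2.87 ± 0.07 untreated (SD, n = 2 each), and the difference of 3.0 ± 0.64 passed (SE; limma, adjusted p = 0.0331), from a mean below 4. It did not pass when any 1 of the 4 WT arrays was left out (adjusted p between 0.162 and 0.205), without the filter on low values (adjusted p = 0.0984) or with a replicate block (adjusted p = 0.0535). On 1457635_s_at the difference was -1.24 ± 0.45 and did not pass (adjusted p = 0.116).

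In CDKO cells the same probe set did not pass. On 1421866_at Nr3c1 differed by 1.04 ± 0.64 at 5 µM against untreated (limma, adjusted p = 0.764), by -1.41 ± 0.64 at 1 µM (adjusted p = 0.887) and by 2.44 ± 0.64 between 5 µM and 1 µM (adjusted p = 0.21). That last comparison passed without CDKO 1 µM replicate 1. The responses of the lines to 5 µM differed by -1.97 ± 0.90 (adjusted p = 0.424), so a difference between the lines was not shown. Untreated CDKO and WT cells differed by 2.27 ± 0.64 (adjusted p = 0.0817), a comparison that passed without either CDKO 1 µM array, and the treated lines by 0.30 ± 0.64 (adjusted p = 0.896).

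These Nr3c1 values moved with the ribosomal RNA control. In the 3 arrays with raised 18S, 1421866_at lay between 2.72 and 2.92, against 4.65 to 6.47 in the other 7, and 1457635_s_at between 9.30 and 9.48, against 7.90 to 9.01. Pgr on 1439527_at lay between 3.80 and 4.42 in those 3 arrays, against 2.26 to 3.39 in the others. On each of these 3 probe sets the raised arrays and the others did not overlap. On the Esr1, Esrra and remaining Nr3c1 probe sets they did overlap. Nr3c1 1421867_at, for one, lay between 9.30 and 9.89 in the raised arrays and between 9.22 and 9.59 in the others. The share of all probe sets that part in this way is not given here. Within the 1 µM group, where line and dose are the same, the array with raised 18S differed from the other by -2.04 on 1421866_at, 1.40 on 1457635_s_at and 1.89 on Pgr 1439527_at. Across the 10 arrays the Pearson r with the 18S control was -0.867, 0.863 and 0.816 in that order, and 1421866_at had r = -0.948 with Pgr 1439527_at. In the WT line, drug and 18S cannot be told apart, since both untreated arrays had the raised control.

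**Figure D4:**
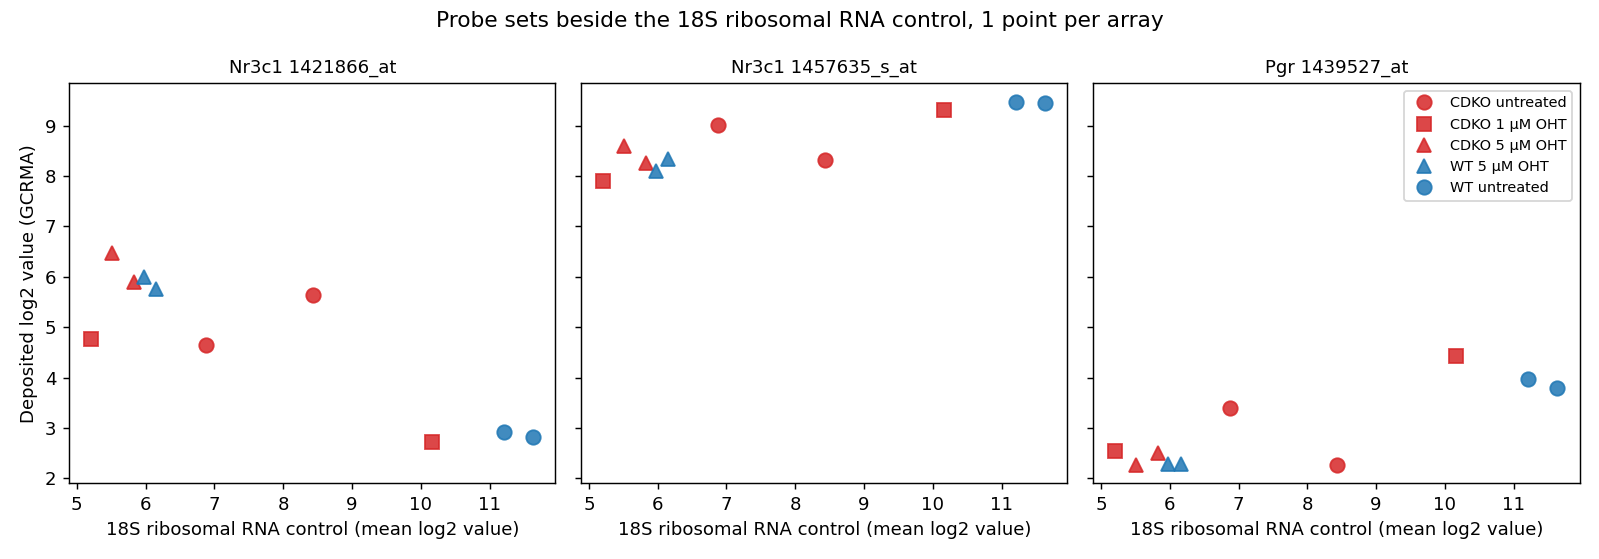
Log2 value of Nr3c1 1421866_at, Nr3c1 1457635_s_at and Pgr 1439527_at against the mean log2 value of the 18S control, 1 point per array, red for CDKO and blue for WT. The 3 arrays with 18S above 10 are CDKO 1 µM replicate 2 and both untreated WT arrays, which read 2.72 to 2.92, 9.30 to 9.48 and 3.80 to 4.42 on the 3 probe sets.

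Summed levels of most marker lists were also higher in untreated than in treated WT cells. The fibroblast sum was 129.6 to 130.1 in treated and 136.1 to 136.3 in untreated WT cells. Of 11 tested fibroblast markers Pdgfra alone passed there, differing at 5 µM by -2.37 ± 0.46 (limma, adjusted p = 0.0263). Macrophage and endothelial sums went the other way, at 111.2 to 111.8 and 16.34 to 16.72 in treated WT cells. In untreated WT cells they were 110.5 to 110.9 and 15.62 to 16.28. Of 6 epithelial markers 4 were at 4 or above in untreated WT cells and 2 or 3 in the other groups. Their summed log2 levels were 27.3 to 27.7 in treated and 37.8 to 37.9 in untreated WT cells, and 23.4 to 30.3 over the CDKO arrays. Of 10 skeletal muscle markers 8 were at 4 or above in untreated WT cells and 4 elsewhere, with sums of 49.8 to 50.04 in treated and 67.3 to 68.2 in untreated WT cells, 46.8 to 51.3 over the CDKO arrays, and Myog and Myod1 below 4 throughout. In WT cells at 5 µM against untreated, 8.18% of all tested genes passed. There 2 of 4 tested epithelial and 5 of 8 muscle markers were lower (limma). In contrast 1 muscle marker, the actin gene Acta1, was higher by 1.93 ± 0.46 (adjusted p = 0.0443). Markers that reach 4 only in untreated WT cells were tested through that group, which favours a lower value at 5 µM. The part of the marker differences in the Nr3c1 and Pgr values was not tested.

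The last 2 Nr3c1 probe sets, 1431378_at and 1453860_s_at, are annotated to the same expressed sequence tag and lay between 3.24 and 3.66 and between 2.39 and 3.02. On the second, CDKO 5 µM replicate 1 read 3.02 and the other 9 arrays 2.39 to 2.47. By likeness over the 10 arrays, the genes nearest to Nr3c1 1421867_at were Bcl2l11 (BIM, a killer protein of the BCL2 family; r = 0.968), Eif2s2 (a subunit of a translation initiation factor; r = 0.962) and Kmt2c (a histone methyltransferase; r = 0.962).

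Esrra, whose receptor drives genes of mitochondrial energy metabolism without a known natural hormone, was read above background by 1460652_at in every array. It read 7.84 and 8.33 in untreated CDKO cells, 8.46 and 8.47 at 1 µM and 8.19 and 7.85 at 5 µM, against 7.74 and 7.89 in treated and 7.82 and 7.82 in untreated WT cells. The 4 WT arrays lay between 7.74 and 7.89 and the 6 CDKO arrays between 7.84 and 8.47, so that the lines overlapped. Treated CDKO cells differed from the control groups by 0.33 ± 0.15 (limma, adjusted p = 0.286). CDKO cells at 1 µM differed from untreated ones by 0.38 ± 0.23 (adjusted p = 0.887). Neither difference passed. The genes nearest to it were Epha1 (a receptor tyrosine kinase; r = 0.933), Sfxn2 (a mitochondrial carrier; r = 0.915) and Rassf1 (a tumour suppressor; r = 0.910).

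The other Esrra probe set stood near background. On 1442864_at, Esrra read 3.85 and 3.79 in untreated CDKO cells, 3.61 and 3.79 at 1 µM and 3.53 and 3.78 at 5 µM, against 3.82 and 4.15 in treated and 5.25 and 4.01 in untreated WT cells. WT untreated replicate 1 stood above the other 9 arrays. None of the 8 comparisons passed, the untreated lines differing by -0.81 ± 0.38 (limma, adjusted p = 0.241). The 2 Esrra probe sets had r = -0.438 across the 10 arrays.

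Esr2, Nr3c2, Esrrb and Esrrg gave no signal above background in any array, and neither did 2 of 3 Pgr probe sets. Esr2 lay between 2.31 and 2.35 and Nr3c2 between 2.41 and 2.48. The 3 Esrrb probe sets lay between 2.08 and 2.87 and the 3 Esrrg probe sets between 2.22 and 2.76. Pgr 1421444_at lay between 2.20 and 2.25 and Pgr 1455772_at between 2.04 and 2.08. None of these 10 probe sets ranged over more than 0.124 across the arrays, in either line and at any dose. A flat value near the floor does not show that the transcript is absent. Pgr 1439527_at was not flat: it read 3.39 and 2.26 in untreated CDKO cells, 2.54 and 4.42 at 1 µM and 2.26 and 2.50 at 5 µM, against 2.29 and 2.29 in treated and 3.80 and 3.97 in untreated WT cells. It passed 4 in 1 array, CDKO 1 µM replicate 2.

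Partners and targets of the receptors were read as lists, with 1 probe set a gene, the highest on average. Over the 10623 genes so tested, the share past the threshold was 2.43% in treated CDKO cells against the control groups, 0.141% at 5 µM and 0% at 1 µM against untreated CDKO cells, and 0.16% for 5 µM against 1 µM. It was 8.18% in WT cells at 5 µM, 0.301% for the difference between lines, and 4.54% untreated and 1.45% at 5 µM for CDKO against WT. The lists gave 14 called genes in WT cells at 5 µM, and none of the 14 passed when any 1 of the 4 WT arrays was left out (limma, adjusted p between 0.0621 and 0.242).

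Estrogen receptor targets were mostly not called. Of 14 measured and 10 tested genes, Nrip1, a corepressor that estrogen induces, was the only call in the 8 comparisons: it averaged 7.29 ± 0.01 in treated and 8.42 ± 0.08 in untreated WT cells (log2, SD, n = 2 each) and fell by 1.13 ± 0.23 (limma, adjusted p = 0.0296). In CDKO cells, where Esr1 1421244_at was high, 0 of the 10 passed at 5 µM or at 1 µM. Only 0.141% and 0% of all genes passed there, so these counts say little about the targets. The list medians were -0.0017 and 0.17, against -0.0080 and 0.0045 over all genes. Untreated CDKO against untreated WT cells also gave 0 of 10, with a median of 0.16, against -0.047 over all genes. The summed log2 level of the 14 measured genes was 109.0 to 111.6 in the 3 arrays with raised 18S and 103.8 to 110.6 in the others.

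Chaperones and cochaperones of the receptors gave no call: 0 of 10 in each of the 8 comparisons, with list medians between -0.17 and 0.16. Their summed log2 level was 120.49 to 121.12 in the 3 arrays with raised 18S and 118.51 to 120.45 in the others. Of 13 tested coactivators and corepressors, 5 fell in WT cells at 5 µM, 0 rose and 8 did not pass, with a list median of -1.13 against -0.093 over all genes. Ppargc1b, which coactivates the estrogen-related receptors, averaged 3.47 ± 0.01 in treated and 5.26 ± 0.02 in untreated WT cells and fell by 1.79 ± 0.35 (limma, adjusted p = 0.0269). The histone acetyltransferases Crebbp (CBP) and Ep300 (p300) fell by 1.28 ± 0.18 (adjusted p = 0.0101) and 1.26 ± 0.28 (adjusted p = 0.037), and Pelp1, a coactivator of estrogen receptors, fell by 1.23 ± 0.29 (adjusted p = 0.0423). The fifth was Nrip1. Between the untreated lines, Ppargc1b was lower in CDKO cells by -2.27 ± 0.35 (adjusted p = 0.0137), the only call of the list in that comparison. Its means in untreated CDKO and treated WT cells lay below 4, so both Ppargc1b differences are distances from background. In the other 6 comparisons 0 of 13 passed. The summed log2 level of the 14 measured genes was 117.8 to 122.2 in the 3 arrays with raised 18S and 107.8 to 113.8 in the other 7.

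Of 14 tested glucocorticoid receptor targets, 4 rose in WT cells at 5 µM, 0 fell and 10 did not pass, with a list median of 0.69 against -0.093 over all genes. Angptl4, an inhibitor of lipoprotein lipase, averaged 7.90 ± 0.12 in treated and 5.69 ± 0.01 in untreated WT cells, a rise of 2.22 ± 0.30 (limma, adjusted p = 0.00979). The kinase gene Sgk1 rose by 1.71 ± 0.22 (adjusted p = 0.00876), Pdk4, which inhibits pyruvate dehydrogenase, by 1.56 ± 0.22 (adjusted p = 0.0109), and Tsc22d3 (GILZ), an anti-inflammatory mediator of glucocorticoids, by 1.5 ± 0.26 (adjusted p = 0.0187). Untreated CDKO cells were higher than untreated WT cells in 3 of the same 4 genes, Tsc22d3 by 1.68 ± 0.26, Pdk4 by 1.61 ± 0.22 and Angptl4 by 1.56 ± 0.30, a comparison that shares the untreated WT arrays with the first. These 3 calls, like that of Ppargc1b between the untreated lines, were lost without either untreated WT array, and that of Angptl4 also without CDKO untreated replicate 2 or either treated WT array. Not all targets stood higher in treated WT cells: Klf9, named after its values were seen, averaged 9.21 ± 0.00 in treated and 10.26 ± 0.00 in untreated WT cells, and did not pass. In treated CDKO cells against the control groups Pdk4 (0.86 ± 0.14, limma, adjusted p = 0.0238) and Sgk1 (0.68 ± 0.14, adjusted p = 0.0463) were higher, but passed in 12 and 2 of 22 alternatives.

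Within the CDKO line 0 of the 14 glucocorticoid targets passed at 5 µM, with a median of 0.21, although Sgk1 averaged 13.47 ± 0.39 at 5 µM and 12.03 ± 0.02 untreated. In the difference between the responses of the lines 0 of the 14 passed. The summed log2 level of the 16 measured genes was 136.2 to 139.3 in the 3 arrays with raised 18S and 139.2 to 147.1 in the others.

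Targets of the estrogen-related receptors in mitochondrial energy metabolism gave Pdk4 alone, which is also in the list above: 1 of 12 in treated CDKO cells against the control groups, in WT cells at 5 µM and in untreated CDKO against untreated WT cells, and 0 of 12 in the other 5 comparisons. The summed log2 level of the 13 measured genes was 146.1 to 147.4 in the 3 arrays with raised 18S and 149.2 to 154.3 in the others.

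Among these lists, steroid-metabolising enzymes held the only calls within the CDKO line. Akr1c18, which inactivates progesterone, averaged 2.15 ± 0.01 in untreated CDKO cells, 2.14 ± 0.01 at 1 µM and 6.65 ± 1.04 at 5 µM, against 5.18 ± 0.41 in treated and 2.10 ± 0.00 in untreated WT cells (log2, SD, n = 2 each). In CDKO cells it was higher at 5 µM than at 1 µM by 4.50 ± 0.44 (limma, adjusted p = 0.022) and than untreated by 4.49 ± 0.44 (adjusted p = 0.0335), and rose by 3.08 ± 0.44 in WT cells (adjusted p = 0.0118), in each case from background. Each of the 2 CDKO calls passed in 11 of 20 alternatives. Neither passed with the compared groups alone (adjusted p = 0.834 against 1 µM and 0.85 against untreated), with array weights, without the filter, with the replicate block or without any 1 of the 4 WT arrays. The call against untreated was also lost without CDKO untreated replicate 1 (adjusted p = 0.148) and the call against 1 µM without CDKO 1 µM replicate 2 (adjusted p = 0.0822). In WT cells at 5 µM 5 of 8 tested genes rose, with a median of 1.10 against -0.093 over all genes. Beside Akr1c18 these were Hsd17b12 (2.17 ± 0.46), an enzyme of fatty acid elongation that can also reduce estrone, Hsd3b7 (1.34 ± 0.23) of bile acid synthesis, and Cyp11a1 (1.11 ± 0.19), which makes pregnenolone from cholesterol. The fifth was Hsd17b7 (1.09 ± 0.23), named after its values were seen, which acts on estrone and in cholesterol synthesis. Cyp11a1 stood at 3.15 ± 0.05 in treated CDKO cells at 5 µM and 4.33 ± 0.23 in treated WT cells and was lower there by -1.18 ± 0.19 (adjusted p = 0.0328), which passed in 10 of 19 alternatives. The Cyp11a1 means in treated CDKO and untreated WT cells lay below 4, so both of its differences are distances from background. Of the 14 measured genes 8 reached 4 in treated and 6 in untreated WT cells. Genes that reach 4 only in treated cells were tested through those groups, which favours a rise. The summed log2 level of the 14 measured genes was 70.2 to 71.2 in the 3 arrays with raised 18S and 73.1 to 82.1 in the others.

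Other receptors for steroids and related orphan receptors, 6 tested of 10 measured, gave no call in any of the 8 comparisons. The summed log2 level of the 10 was 64.1 to 64.9 in the 3 arrays with raised 18S and 62.8 to 66.4 in the others. Among the members of that list the nuclear receptors Nr0b1, Nr0b2, Nr1i2 and Nr1i3 stayed below 4 in every array, with Nr1i2 and Nr1i3 being the xenobiotic receptors PXR and CAR.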

How the data were processed

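RNA of mouse embryonic fibroblasts was measured on 10 arrays in 5 groups of 2. The authors deposited log2 values for each probe set on each array. Per the submitters' processing notes these come from GCRMA, with no version named there. The log2 scale was read from the values, which ran from 1.09 to 16.0. Probe sets were named from the platform annotation (34945 with 1 symbol, 932 with several, 9160 with none).

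After 64 controls were left out, 20681 probe sets whose highest group mean reached 4 were fitted in R 4.3.3 with limma 3.58.1 (5 group means, 5 residual degrees of freedom, empirical Bayes), in 8 comparisons. Benjamini-Hochberg adjustment ran over all of them, with a threshold of 0.05. The spread is pooled, so by the median SD it is too small for CDKO and too large for WT groups. For Esr1 1421244_at the order was the reverse. Its SDs were 0.48, 0.35 and 0.36 in CDKO cells at 0, 1 and 5 µM, against 1.05 in treated and 1.37 in untreated WT cells. The number of arrays limits the precision.

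Members, lists and markers were chosen with earlier results of these data known. Named are all member probe sets, up to 4 called genes of a list with the largest change per comparison, and the 3 genes nearest by correlation. Replicate numbers were not treated as pairs: replicate differences of CDKO cells correlated at -0.453 between untreated and 1 µM and at 0.431 between untreated and 5 µM. The alternatives were no filter or one at 6, another prior, centring, quantile normalization, 1 probe set a gene, array weights, blocks, the compared groups alone, other models of treated CDKO cells against the control groups, and each array left out.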

Additional observations from a re-analysis of the deposited data

How the results depend on the processing

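The count of receptor probe sets past the threshold was 0 or 1 in each comparison and moved as follows. In treated CDKO cells against the control groups the count of 1 became 0 with array weights, with a block for spike-in class, as 2 groups of 4 and 6 arrays, with the line as a term and without the untreated WT group, and stayed 1 with any array left out. In WT cells at 5 µM against untreated it was 0 without the filter and 0 with the replicate block, 3 with array weights and 3 with the compared groups alone (Nr3c1 1421866_at, 1421867_at and 1457635_s_at), and 0 to 3 with each array left out: 0 without any 1 of the WT arrays, 3 without CDKO 1 µM replicate 1 and 2 without replicate 2. For CDKO against WT untreated it was 0 with the compared groups alone (Esr1 adjusted p = 0.0501) and 1 to 2 with each array left out, where Nr3c1 1421866_at was added without either CDKO 1 µM array. With array weights there, Esr1 did not pass (adjusted p = 0.0618) and Nr3c1 1421866_at did. At 5 µM it was 0 with array weights (Esr1 adjusted p = 0.0887) and 0 with the compared groups alone, and 0 to 1 with each array left out. For CDKO at 5 µM against 1 µM the count of 0 became 2 without CDKO 1 µM replicate 1 (Nr3c1 1421866_at and Pgr 1439527_at) and was 0 to 2 over the arrays left out. The causes were not tested.

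Esr1 1421244_at passed in 17 of 22 alternatives in treated CDKO cells against the control groups (0.38 to 4.23), in 18 of 20 between the untreated lines (4.42 to 6.36) and in 14 of 20 at 5 µM (5.11 to 6.6). Nr3c1 1421866_at passed in 14 of 20 in WT cells (2.88 to 3.13). No sign turned, though none could when an array was left out of groups that do not overlap. The replicate block changed no other count of receptor probe sets. Of the list calls it removed Ep300 (adjusted p = 0.0513), Nrip1 (0.053), Hsd17b7 (0.0575) and Pelp1 (0.0661) in WT cells, Akr1c18 in CDKO cells (0.0624 against 1 µM and 0.0729 against untreated), Cyp11a1 between the treated lines (0.0675) and Sgk1 in treated CDKO cells against the control groups (0.0745). A crossed replicate block for CDKO at 1 µM against untreated, chosen after seeing the data, gave 0. For treated CDKO cells against the control groups the compared groups are all groups, so that setting gave no value. Counts over all probe sets moved more: with each array left out they ran from 142 to 1492 in treated CDKO cells against the control groups and from 65 to 4498 in WT cells at 5 µM. Signals under 4 limit the reading of 15 of the 22 probe sets.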
